A study of Mus musculus with 6 samples.

Results

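The primitive endoderm genes examined here were Gata4, Gata6, Sox17, Sox7, Foxa2, Pdgfra and Dab2, 7 of the 42450 genes in the deposited table, and they were picked by name as markers of this lineage. They were measured in mouse embryonic stem cells of the male E14tg2a.4 line (WT, 3 libraries) and in a derivative of that line with a gene-trap cassette in exon 1 of Srrm2 on 1 allele (Srrm2+/-, 3 libraries). Srrm2 encodes a splicing factor of nuclear speckles, and the comparison asks how a lower dose of it alters gene expression in pluripotent cells. Both lines were kept with LIF on gelatin, and total RNA was taken after a final period in serum-free medium. The Srrm2+/- line is 1 gene-trap clone. Per the study's methods, the replicates of a line were thawed from 3 batches frozen separately, and WT batches had higher passage numbers than Srrm2+/- batches, so passage, clone and genotype cannot be told apart here.

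Primitive endoderm is the extra-embryonic epithelium that sorts out from the inner cell mass of the blastocyst and later forms visceral and parietal endoderm of the yolk sac. In the embryo, FGF4 from NANOG-positive epiblast precursors acts through FGF receptors and ERK on neighbouring cells, where GATA6 is required for the fate. PDGFRA, SOX17, GATA4 and SOX7 follow GATA6, and FOXA2 and DAB2 mark the maturing layer. Embryonic stem cells derive from the epiblast side of this choice, and cultures with LIF can contain a few cells with primitive endoderm features.

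Of the 7 genes, Dab2 was the only one called different between the genotypes, and it was higher in Srrm2+/-. Dab2 encodes an endocytic adaptor that links cargo receptors to clathrin. Its level was 2.53-fold higher in Srrm2+/- than in WT (95% interval 1.57 to 4.06). The transcription factor genes Gata4, Gata6 and Sox7 and the receptor gene Pdgfra were tested and not called, and Sox17 and Foxa2 had too few reads for the test. A gene was called at an edgeR adjusted p under 0.05, and 25.3% of the 18905 genes tested were called in either direction, 13.6% higher and 11.7% lower. The count of 1 in 5 tested genes was therefore near the share among all genes, and nothing particular to the group was read from it. Among the 4629 tested genes whose mean log2 CPM lay within the range of the 5, 9.63% were called and 6.59% were called higher.

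The libraries held between 54151532 and 69933465 estimated counts, and 1 CPM, a count scaled to library size, corresponded to between 53.6 and 69.2 counts. Srrm2 (chromosome 17, 23790532 to 23824741, plus strand) went with the labels, at 95.7 ± 3.94 CPM across WT libraries and 59.3 ± 3.02 CPM across Srrm2+/- libraries (SD, n = 3 each; edgeR log2 fold change -0.69 with SE 0.05, adjusted p 2.38e-05). No pair of libraries within a group agreed within sampling noise. Replicates of a line differ by frozen batch, so p-values measure the spread between batches of 1 line, not between independent clones.

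Dab2 (ENSMUSG00000022150, GRCm38 chromosome 15, 6299788 to 6440712, plus strand, protein coding) is read from several transcripts with more than 1 annotated start. The 250 bases before 2 of these starts are shown because Dab2 is the gene that differed, and because the stretches differ in composition. They were taken from the RefSeq promoter table of GRCm38.p6, plus strand, and capitals mark a match to GATAA, the core of the sites that GATA factors bind.
Dab2 upstream start, chr15:6299539-6299788: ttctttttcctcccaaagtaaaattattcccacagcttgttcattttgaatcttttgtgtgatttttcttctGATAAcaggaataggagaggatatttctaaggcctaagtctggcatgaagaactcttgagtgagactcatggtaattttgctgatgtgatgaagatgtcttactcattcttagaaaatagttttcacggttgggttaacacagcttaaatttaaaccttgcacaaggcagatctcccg
Dab2 downstream start, chr15:6386498-6386747: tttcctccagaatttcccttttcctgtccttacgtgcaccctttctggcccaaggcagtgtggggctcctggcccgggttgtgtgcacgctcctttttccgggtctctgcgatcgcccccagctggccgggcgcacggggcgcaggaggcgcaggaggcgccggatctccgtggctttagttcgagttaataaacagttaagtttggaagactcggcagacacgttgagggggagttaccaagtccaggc
The stretch before the upstream start had a GC content of 36.8% with 2 CpG dinucleotides, and that before the downstream start 60.0% with 17. The median over 32851 promoters of the table was 52.4% and 6 CpG. GATAA, searched on both strands, occurred 1 time before the upstream start, at 178 to 174 bases from it, and 0 times before the downstream start. It occurred in 22.6% of all promoter stretches of this length, so a single match is common. ACAAAG, the core of SOX sites (16.5% of all promoters), TGTTTAC, the core of FOXA sites (3.17%), and the CArG box of the serum response factor (1.47%) did not occur in either stretch on either strand. Gene-level counts do not say which start was used. Foxa2 and Pdgfra were the other genes of the 7 with an entry in the table. The single Pdgfra stretch held none of the 4 motifs, and 1 of 3 Foxa2 stretches had a match to the GATA core and 1 to the SOX core. Gata4, Gata6, Sox17 and Sox7 were not matched.

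Dab2 had 21, 32 and 22 estimated counts in the WT libraries. In the Srrm2+/- libraries it had 59, 109 and 60. Every Srrm2+/- library was above every WT library, and Srrm2+/- replicate 2 stood above the other two. Library depth was also greater in Srrm2+/-, and after scaling the level was 0.448 ± 0.0932 CPM across WT libraries and 1.14 ± 0.390 CPM across Srrm2+/- libraries (SD, n = 3 each). edgeR gave a log2 fold change of 1.34 (SE 0.30) at an adjusted p of 0.0112. Without Srrm2+/- replicate 2 it was 1.02, still called (edgeR adjusted p 0.0395). The groups did not overlap, as for 41.4% of all genes tested. Of the 31-base words in annotated Dab2 transcripts, 2.42% also occur in Gm18888, a pseudogene on the opposite strand within the Dab2 locus that was not among the listed genes. The annotated antisense gene Gm16311 was at 0 counts in every library.

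**Figure D1:**
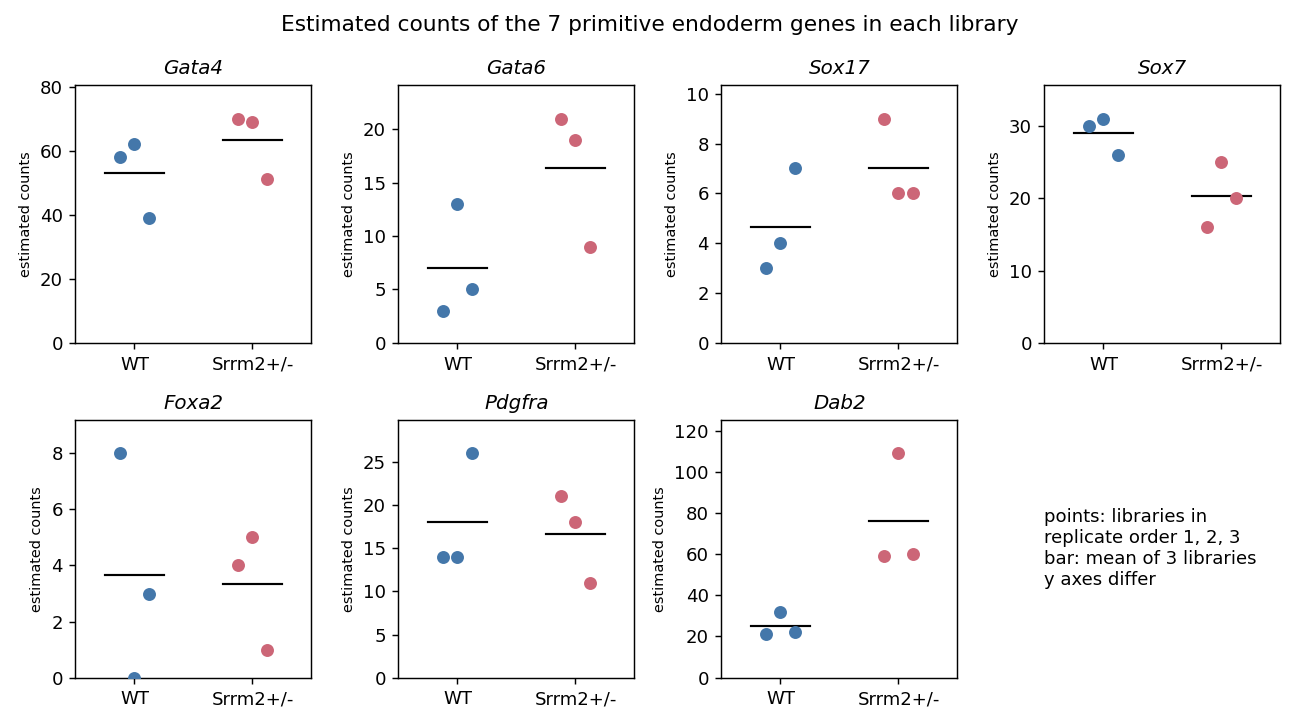
Estimated counts (y axes, which differ between panels) of each of the 7 genes in the 3 WT (blue) and 3 Srrm2+/- (red) libraries, with points in replicate order and a bar at the group mean. Dab2 lay at 21 to 32 counts in WT and 59 to 109 in Srrm2+/-, Sox7 at 26 to 31 and 16 to 25, and the groups of the other 5 genes overlapped in CPM.

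Among the GATA factors, Gata6 (ENSMUSG00000005836, chromosome 18, 11052064 to 11085635, plus strand) encodes the factor that starts the primitive endoderm programme. Its counts were 3, 13 and 5 in WT and 21, 19 and 9 in Srrm2+/-. WT replicate 2 lay within the Srrm2+/- range, so the groups overlapped. The level was 0.124 ± 0.0895 CPM across WT libraries and 0.242 ± 0.0841 CPM across Srrm2+/- libraries (SD, n = 3 each). edgeR put the log2 fold change at 0.95 (SE 0.55) with an adjusted p of 0.261. The 95% interval of the fold ran from 0.805 to 4.61, so a difference of this size and none at all were not told apart at this depth. The size rested on single WT libraries, as the log2 fold change was 1.70 without WT replicate 2 (edgeR adjusted p 0.0979) and 0.59 without WT replicate 1, and Gata6 was called in none of 13 alternatives.

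Gata4 (ENSMUSG00000021944, chromosome 14, 63198922 to 63271692, minus strand) encodes a related zinc-finger factor that acts later in the same layer and in heart. It was the best measured of the transcription factors, with 58, 62 and 39 counts in WT and 70, 69 and 51 in Srrm2+/-. These correspond to 0.949 ± 0.191 CPM (SD, n = 3) and 0.946 ± 0.104 CPM (SD, n = 3), with overlapping groups. In edgeR the log2 fold change came to -0.0038 (SE 0.22), with an adjusted p of 0.992. The 95% interval of the fold, 0.706 to 1.41, leaves out a change as large as that estimated for Dab2. The sign of so small a value turned in 7 of 13 alternatives.

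Sox7 (ENSMUSG00000063060, chromosome 14, 63943673 to 63950732, plus strand), a gene for an SRY-related factor of parietal endoderm and of blood vessels, was the other gene of the 7 without overlap between the groups. It had 30, 31 and 26 counts in WT and 16, 25 and 20 in the more deeply read Srrm2+/- libraries. All 3 Srrm2+/- libraries were below all 3 WT libraries, the opposite order to Dab2. Groups without overlap were found for 41.4% of all genes tested, so the separation is not particular to Sox7. The level was 0.521 ± 0.0307 CPM across WT libraries and 0.306 ± 0.0675 CPM across Srrm2+/- libraries (SD, n = 3 each). The log2 fold change was -0.77 (SE 0.29, 95% interval -1.43 to -0.10), with an unadjusted edgeR p of 0.0279 and an adjusted p of 0.0888, which missed the threshold. Over 13 alternative settings the log2 fold change lay between -0.91 and -0.60 with adjusted p between 0.0773 and 0.258, so Sox7 was not called in any of them.

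Sox17 (ENSMUSG00000025902, chromosome 1, 4490931 to 4497354, minus strand), a relative of Sox7 that maintains extra-embryonic endoderm, stayed under the filter on low counts. It had 3, 4 and 7 counts in WT and 9, 6 and 6 in Srrm2+/-, or 0.0846 ± 0.0406 and 0.105 ± 0.0225 CPM (SD, n = 3 each). The groups overlapped. When every gene with at least 1 count was fitted, edgeR gave it 0.31 on the log2 scale (SE 0.69, adjusted p 0.83, 95% interval -1.17 to 1.80). Of its 31-base words, 15.7% also occur in the overlapping antisense gene Gm37587, which had 3, 1 and 0 counts in WT and 4, 0 and 5 in Srrm2+/-. The library kit marks strand, but whether the counting used it was not given, so reads of the pair may have been exchanged.

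Foxa2 (ENSMUSG00000037025, chromosome 2, 148042877 to 148046969, minus strand) encodes a forkhead factor of visceral and definitive endoderm. It was the lowest of the 7 by counts, with 8, 0 and 3 in WT and 4, 5 and 1 in Srrm2+/-. WT libraries gave both the highest and the lowest value. The means were 0.0667 ± 0.0727 CPM across WT libraries and 0.0488 ± 0.0292 CPM across Srrm2+/- libraries (SD, n = 3 each). With at least 1 count as the filter edgeR gave -0.41 on the log2 scale (SE 1.10, adjusted p 0.866), and the 95% interval, -2.78 to 1.97, spanned large differences in either direction. Without WT replicate 1 the difference of the means turned from -0.018 to 0.0208 CPM. A change of Foxa2 was not detectable at this depth.

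Pdgfra (ENSMUSG00000029231, chromosome 5, 75152292 to 75198215, plus strand) encodes the PDGF receptor commonly used to sort primitive endoderm cells. It had 14, 14 and 26 counts in WT and 21, 18 and 11 in Srrm2+/-. The groups overlapped, with WT replicate 3 highest. The level was 0.327 ± 0.138 CPM across WT libraries and 0.248 ± 0.0637 CPM across Srrm2+/- libraries (SD, n = 3 each). The edgeR estimate was -0.39 on the log2 scale (SE 0.40, adjusted p 0.547, 95% interval -1.30 to 0.53). Without WT replicate 3 the value was 0.0093, so the direction rested on that library. Of its 31-base words, 5.57% were shared, over 2764 other genes. Most of the shared words occur in the antisense gene Gm42802, which was not among the listed genes. As for Sox17, whether the counting used strand was not given.

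**Figure D2:**
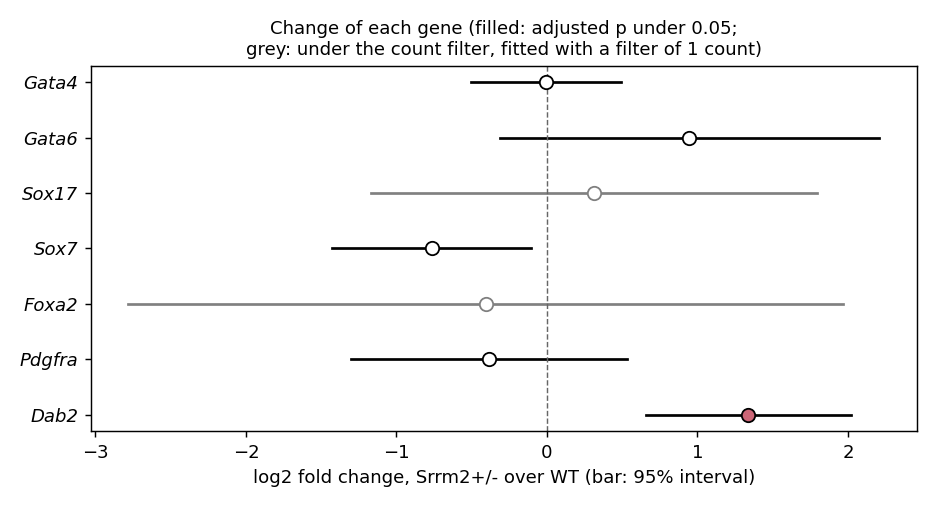
Log2 fold change of Srrm2+/- over WT (x axis) for each of the 7 genes, with 95% intervals from edgeR. The filled point, Dab2 at 1.34, is the only called gene, and the grey genes Sox17 and Foxa2 come from the fit that kept every gene with at least 1 count.

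The 5 tested genes thus spread from -0.77 (Sox7) to 1.34 (Dab2) on the log2 scale, with a median of -0.0038 beside -0.0025 over all genes tested. They spanned both directions. Summed over the 7 genes, the libraries held 137, 156 and 128 counts in WT and 200, 251 and 158 in Srrm2+/-. The summed level was 2.52 ± 0.160 CPM across WT libraries and 3.03 ± 0.553 CPM across Srrm2+/- libraries (SD, n = 3 each), and the groups overlapped. Dab2 made up 15.3% to 20.5% of the summed counts in WT and 29.5% to 43.4% in Srrm2+/-. With Dab2 taken out, the WT sum was 2.07 ± 0.0846 CPM and the Srrm2+/- sum 1.89 ± 0.266 CPM (SD, n = 3 each). The mean of the remaining 6 genes together was thus not higher in Srrm2+/-. Gata4 and Sox7, at 0.949 and 0.521 CPM in WT, weighed most in this sum, so it says little about the genes with lower counts. In such bulk libraries fewer cells of a type and less RNA per cell cannot be told apart.

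**Figure D3:**
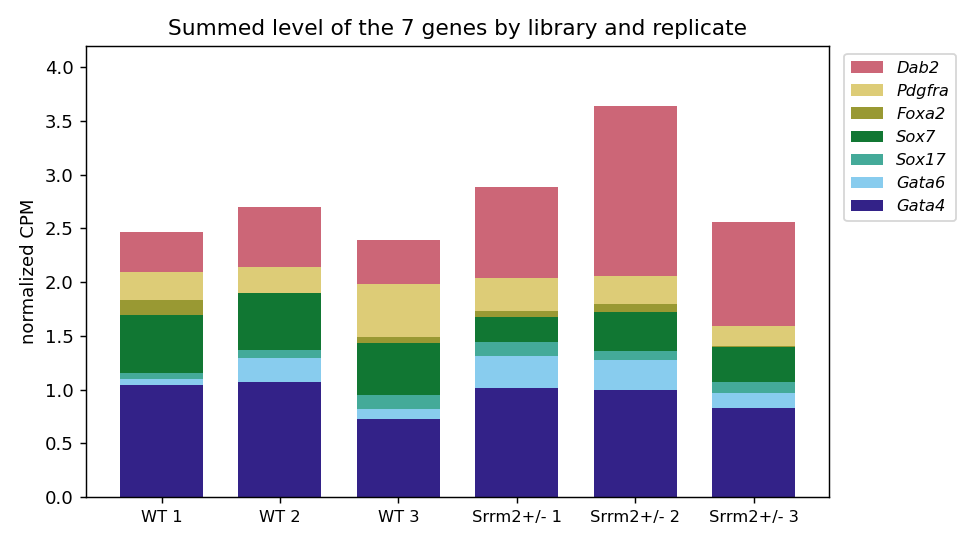
Summed normalised CPM of the 7 genes in each of the 6 libraries (bars from 0), divided by gene. The Dab2 segment is larger in every Srrm2+/- library, and the rest of the bar is between 1.98 and 2.15 CPM in WT and between 1.59 and 2.06 CPM in Srrm2+/-.

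Levels of different genes were compared per kilobase of exon. In WT the order from high to low was Gata4 at 0.243 ± 0.0490 CPM per kb, Sox7 at 0.158 ± 0.00930 and Dab2 at 0.0610 ± 0.0127 (SD, n = 3 each). Pdgfra at 0.0326, Foxa2 at 0.0282, Gata6 at 0.0191 and Sox17 at 0.0177 CPM per kb followed, with SDs between 0.00850 and 0.0307, so these 4 did not differ from each other beyond their spread. In Srrm2+/- Gata4 stayed at the top with 0.242 ± 0.0266 CPM per kb, and Dab2 at 0.155 ± 0.0532 stood above Sox7 at 0.0927 ± 0.0205 (SD, n = 3 each). Pou5f1, the octamer factor of pluripotent cells, was at 377 CPM per kb in WT and 366 in Srrm2+/-, far above all 7 genes. Depending on which of the 7 is taken, between 25.9% (Sox17) and 43.6% (Gata4) of protein-coding genes in the table had a lower level per kb in WT. A bulk average of this size does not say whether few cells or all cells held the transcripts.

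**Figure D4:**
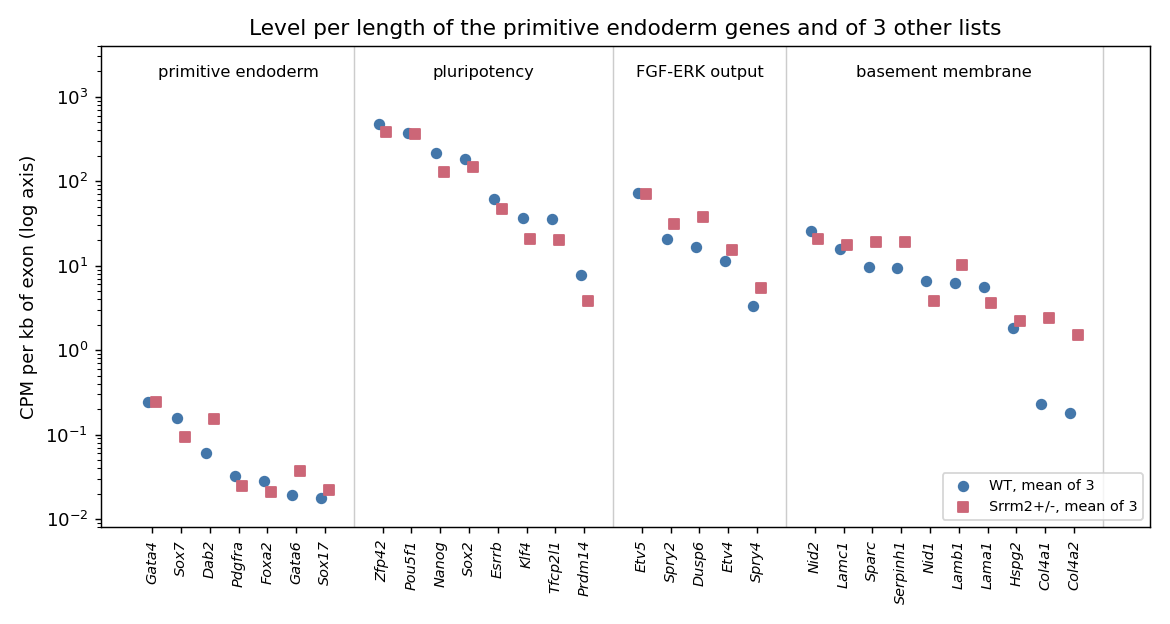
Mean level in CPM per kb of exon (log axis) of the 7 genes and of the pluripotency, FGF-ERK output and basement membrane lists, in WT (blue circles) and Srrm2+/- (red squares), n = 3 each. The 7 genes lie between 0.0177 and 0.243 CPM per kb, below nearly all genes of the other lists, with Col4a1 and Col4a2 in WT at the top of their range.

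The genes with the profile most like that of Dab2 over the 6 libraries were Pgr and Afap1l2, out of 13562 tested genes whose mean log2 CPM was 0 or more. Likeness was the root mean square difference between log2 CPM profiles, each relative to its own WT mean. Pgr, the progesterone receptor gene, differed from Dab2 by 0.124 and went from 0.645 ± 0.117 to 1.6 ± 0.395 CPM (SD, n = 3 each). Afap1l2 differed by 0.159 and went from 0.899 ± 0.139 to 2.21 ± 0.455 CPM (SD, n = 3 each). In both, as in Dab2, Srrm2+/- replicate 2 was the highest library. With 6 libraries and a shared group difference, such a match is a description only.

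Genes that lie beside the 7 were examined next. The annotation places 24 genes over them or within 50 kb of them, of which 16 were in the table and 3 had enough counts for the test. Near Gata4, Fdft1 of sterol synthesis was higher (log2 fold change 0.31, SE 0.09, edgeR adjusted p 0.0359) and Neil2, a DNA glycosylase gene, was lower (-0.38, SE 0.10, edgeR adjusted p 0.0245). Neither call held throughout: that of Fdft1 was lost with the replicate number as a block and without WT replicate 1 or 3 or Srrm2+/- replicate 2 or 3, and that of Neil2 without WT replicate 1 or 2 or Srrm2+/- replicate 1 or 3. Pinx1 near Sox7 was not called (0.03, SE 0.06, edgeR adjusted p 0.741). The C9 gene next to Dab2 was at 0 counts in every library, as were 9030622O22Rik next to Foxa2 and, apart from 1 count in each of 2 Srrm2+/- libraries, the antisense gene 1010001N08Rik at Gata6.

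The surrounding pathway was read from gene lists, which were chosen with earlier results of these data known and are described by counts. Together they held 93 distinct tested genes outside the 7, of which 32 were called higher and 20 lower. Over all genes tested, 13.6% were called higher and 11.7% lower, the shares beside which the counts of each list stand. Calls were more frequent at higher levels. With the filter of at least 1 CPM in a group, 44 of 62 list genes and 4687 of 13544 genes were called. The FGF-ERK list was divided into input (ligand, receptors and relays) and output (target genes). Of 10 tested input genes, 2 were called higher and 1 lower, with a median log2 fold change of 0.03. Fgf4, the ligand that instructs primitive endoderm, fell from 230 ± 5.06 to 170 ± 8.85 CPM (SD, n = 3 each; edgeR log2 fold change -0.44, adjusted p 0.0002). Its receptor gene Fgfr1 rose from 13.8 ± 1.55 to 21.6 ± 0.538 CPM (SD, n = 3 each; edgeR log2 fold change 0.65, adjusted p 0.000496), while Fgfr2 was at 9.39 ± 1.25 and 11.2 ± 1.78 CPM and was not called. Ptpn11, which encodes the phosphatase SHP2, rose by a log2 fold change of 0.21 (edgeR adjusted p 0.00887). Frs2, Grb2, Sos1, Map2k1, Map2k2 and Mapk3 lay between -0.10 and 0.07 and were not called.

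Of the 5 output genes, 4 were called higher and 0 lower, with a median of 0.56. Dusp6, the ERK phosphatase gene that ERK itself induces, rose from 52.5 ± 1.5 to 117 ± 3.29 CPM (SD, n = 3 each; edgeR log2 fold change 1.16, adjusted p 4.55e-07). The feedback inhibitor genes Spry4 and Spry2 rose by 0.71 and 0.56, and the ETS factor gene Etv4 by 0.45. Etv5, at 294 ± 15.4 and 291 ± 8.56 CPM in WT and Srrm2+/- (SD, n = 3 each), was not called. Within the same libraries the GATA factor genes, which follow FGF signalling in the embryo, were not called. For Gata6 the 95% interval of the fold, 0.805 to 4.61, holds both 1 and the 2.23 of Dusp6. Gata6 therefore gives no contrast with the output genes. The interval of Gata4, 0.706 to 1.41, leaves out the 2.23 of Dusp6 but holds the 1.36 of Etv4.

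The ligands and other receptors of PDGFRA's family differed among themselves. Of 6 tested, 2 were higher and 2 lower, with a median of 0.40. Pdgfa and Pdgfc, ligands of PDGFRA, fell from 52.9 ± 1.96 to 36.4 ± 0.303 CPM and from 10.5 ± 0.812 to 5.31 ± 0.371 CPM (SD, n = 3 each; edgeR log2 fold changes -0.54 and -0.98, adjusted p 4.51e-05 and 0.000133). The receptor-like gene Pdgfrl rose by 1.29. Pdgfb rose by 0.57 (edgeR adjusted p 0.0212) and was no longer called without WT replicate 1, WT replicate 3 or Srrm2+/- replicate 2, where it lay as low as 0.45. Pdgfd (1.00, edgeR adjusted p 0.0709) and Pdgfrb (0.23, 0.685) were not called, although Pdgfd was called without WT replicate 2.

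Relatives and partners of the GATA, SOX and FOXA factors ranged from 0.0346 CPM (Zfpm2) to 2.80 CPM (Zfpm1) in WT. Of 9 genes listed 7 were tested, and 1 was called. Zfpm2, which encodes the GATA cofactor FOG2, had 0, 6 and 0 counts in WT and 34, 22 and 32 in Srrm2+/- (edgeR adjusted p 0.0117). Its only WT counts came from replicate 2, and the fitted log2 fold change of 3.56 ranged from 3.00 to 7.78 over the alternatives. The highest value came without that library, when WT was at 0 and the fit gives no measure of size. Gata1, Gata2, Gata3 and Gata5 had log2 fold changes between 0.38 and 1.04, none called, although Gata1 was called without Srrm2+/- replicate 2. Zfpm1 (FOG1) at 0.18 and Foxa3 at -0.28 were not called either, and Sox18 and Foxa1 were under the filter.

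DAB2 couples receptors to clathrin, and genes of its cargo receptors and partners were listed for that reason. Of 7 tested, 2 were higher, 1 lower and 4 not called, with a median of 0.35. Lrp2, the gene for megalin, the large endocytic receptor of absorptive epithelia, rose from 28.7 ± 1.44 to 72.5 ± 7.04 CPM (SD, n = 3 each; edgeR log2 fold change 1.34, SE 0.07, adjusted p 5.18e-06). Its fold, 2.53, was that of Dab2, at far higher counts. The clathrin adaptor subunit gene Ap2b1 rose by 0.35, and Lrp1 fell by 0.36 on the log2 scale (edgeR adjusted p 0.0464), a call lost in 9 of 14 alternatives, among them the omission of any 1 library. Cubn (0.78, edgeR adjusted p 0.0657) and Amn (1.59, 0.0818), the genes of the megalin partner cubilin and its anchor, Ap2a1 (0.03) and Myo6 (-0.04) were not called. Amn was called without WT replicate 3.

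Basement membrane genes, which primitive endoderm and its derivatives express strongly, were called in 8 of 10 cases, 5 higher and 3 lower, with a median of 0.48. The collagen IV genes Col4a1 and Col4a2 rose most, from 1.71 ± 0.687 to 18.1 ± 2.60 CPM and from 1.18 ± 0.148 to 10.1 ± 1.72 CPM (SD, n = 3 each; edgeR log2 fold changes 3.40 and 3.09, adjusted p 2.55e-05 and 3.7e-06). Serpinh1, a collagen chaperone gene, Sparc and the laminin gene Lamb1 rose by 1.03, 0.99 and 0.73. The laminin gene Lama1 and the nidogen genes Nid1 and Nid2 fell by 0.64, 0.81 and 0.30 on the log2 scale. Chains of the same membrane, such as Lama1 and Lamb1, thus moved in opposite directions.

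Markers of the layers that arise from primitive endoderm were next. Of 14 visceral endoderm genes 9 were under the filter, and Afp, Apoa4 and Fgb were at 0 in every library. Ttr had 0, 1 and 1 counts in WT and 0 in every Srrm2+/- library, and Hnf4a had 7, 5 and 9 in WT and 3, 2 and 2 in Srrm2+/-. Of the 5 tested, Cited1 had 2, 7 and 3 counts in WT and 67, 40 and 51 in Srrm2+/- and rose (3.43 on the log2 scale, edgeR adjusted p 0.000588). The X-linked homeobox gene Rhox5 fell (-1.04, edgeR adjusted p 6.1e-06). Rhox5 was at 66.7 ± 3.99 CPM across WT libraries (SD, n = 3), far above the other tested genes of this list. Whether its level came from visceral endoderm was not tested. Of 5 anterior visceral endoderm genes, 3 were tested, Otx2 rose by 1.12 and Lefty1 fell by 0.95 on the log2 scale. Both are also expressed by epiblast-type cells. Of 8 parietal endoderm genes, 5 were tested and 3 were called higher: Thbd (2.35, edgeR adjusted p 0.000985), Plat (1.83, 0.00367) and Vim (0.38, 0.00534). Pth1r and Gkn2 were at 0 in every library, and Snai1 was not called (0.77, edgeR adjusted p 0.209).

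**Figure D5:**
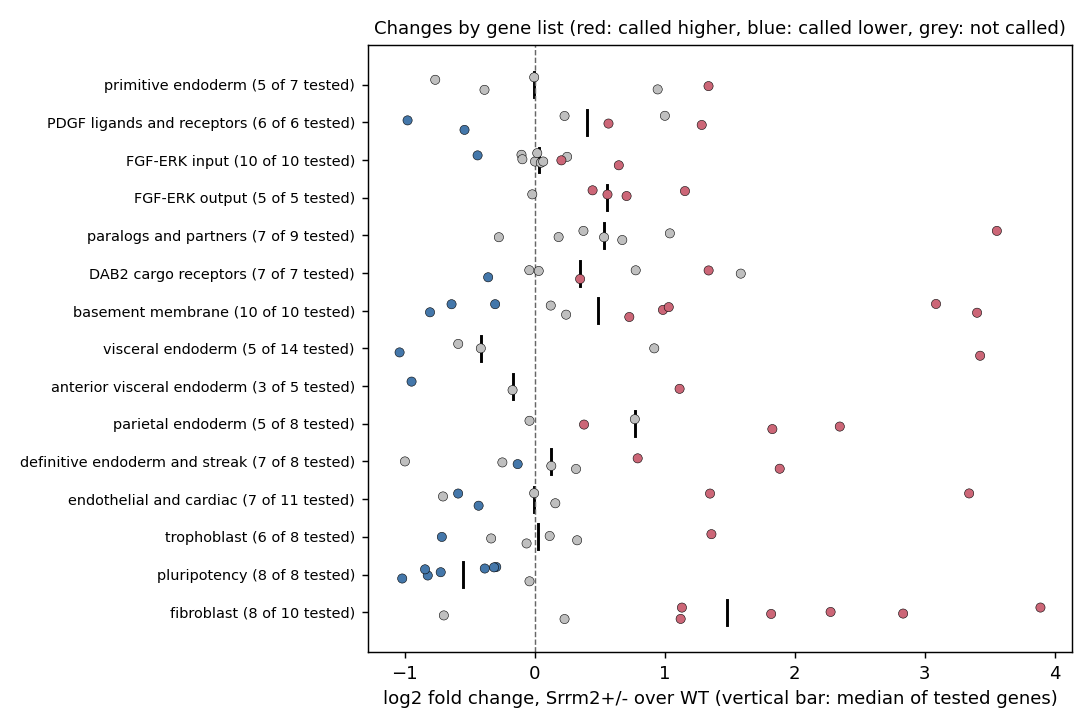
Log2 fold change of Srrm2+/- over WT (x axis) of every tested gene in each list, with called genes in red (higher) or blue (lower), others in grey and a bar at the list's median. The primitive endoderm list has 1 called gene of 5 and a median of -0.0038, and the FGF-ERK output and basement membrane lists lie mostly to the right of 0.

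Several of the 7 genes are not restricted to primitive endoderm, so markers of other cell types were measured beside them. Fibroblasts and other mesenchyme express Dab2 and Pdgfra. Of 10 fibroblast genes 8 were tested, 6 were called higher and 0 lower, with a median log2 fold change of 1.48, and their summed level ranged from 5.19 to 5.80 CPM in WT and from 11.4 to 15.2 CPM in Srrm2+/-. Col1a2 rose by 3.89, Postn by 2.83, Col3a1 by 2.28 and Col1a1 by 1.13. Thy1 was not called (-0.70, edgeR adjusted p 0.0939), but without Srrm2+/- replicate 3 it was lower (-1.09, adjusted p 0.00779), which made the count 6 higher and 1 lower. Lum had 3, 0 and 0 counts in WT and 0, 1 and 3 in Srrm2+/-, and Dcn had 0 in WT and 4, 2 and 3 in Srrm2+/-. Among the Srrm2+/- libraries, replicate 2, where Dab2 was highest, had the highest CPM for 6 of the 10 listed genes. Replicate 1 was highest for 2 (Twist1 and Dcn) and replicate 3 for 2 (Thy1 and Lum). This order was not particular to fibroblast genes, as Col4a1, Lrp2, Plat, T and Krt7 of other lists were also highest in replicate 2. Others were not, such as Dusp6 and Sparc (highest in replicate 1) and Lamb1 (replicate 3). The share over all genes was not computed. Whether the fibroblast genes share a source with Dab2 was not tested.

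Endothelial and cardiac progenitors express Gata4, Gata6, Sox7 and Sox17. Of 11 such genes 7 were tested, with 2 higher, 2 lower and a median of -0.0040, and their summed level ranged from 95.4 to 98.6 CPM in WT and from 71.5 to 76.9 CPM in Srrm2+/-, most of it Pecam1, which stem cells also express. Kdr had 9, 3 and 5 counts in WT and 78, 71 and 62 in Srrm2+/- (log2 fold change 3.34, edgeR adjusted p 0.000203), and Etv2 rose by 1.35. Pecam1 and Tek fell by 0.43 and 0.59 on the log2 scale. The endothelial cadherin gene Cdh5 had 0 counts in every WT library and 0, 1 and 1 in Srrm2+/-, and the cardiac gene Hand2 had 1 count in 1 library of each group. Foxa2 is also a gene of definitive endoderm and the streak, and of 8 genes of that list 7 were tested, with T (1.89, edgeR adjusted p 0.000513) and Eomes (0.79, 0.0387) higher and Gdf3 (-0.13, 0.0474) lower. The call of Eomes was lost in 8 of 13 alternatives (DESeq2, the filter of at least 1 count, the replicate block and the omission of any library but WT replicate 2). That of Gdf3 was lost in 11 of 14 (the same settings, upper quartile scaling, limma voom and the omission of any library), while T was called in every one that tested it. Mixl1, Gsc and Cxcr4 were not called. The part of these other lineages in the values of the 7 genes was not tested.

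Trophoblast genes, as markers of the other extra-embryonic lineage, gave 1 higher (Krt7, 1.36) and 1 lower (Tfap2c, -0.71) of 6 tested. Cdx2, under the filter, had 0 counts in every WT library and 5, 8 and 17 in Srrm2+/-. With a filter of at least 1 count it was called higher (edgeR adjusted p 0.0112), and the list gave 2 higher and 1 lower of 8. With WT at 0 that fit gives no measure of size. The pluripotency genes checked the labelled cell type: their summed level was 3379 to 3490 CPM in WT and 2643 to 2771 CPM in Srrm2+/-. Of 8 tested 7 were called lower, with a median of -0.55, and Pou5f1 was not called. Nanog, which opposes Gata6 in the inner cell mass, fell from 482 ± 15.3 to 292 ± 11 CPM (SD, n = 3 each; edgeR log2 fold change -0.72, adjusted p 8.6e-06). Gata6 stood at 0.124 ± 0.0895 CPM in the same WT libraries and at 0.242 ± 0.0841 CPM in Srrm2+/-, a difference that was not called (SD, n = 3 each).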

How the data were processed

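The 6 libraries were made with a stranded total RNA kit and read in pairs. Pseudo-alignment by the authors used Kallisto 0.46.1 and GENCODE mouse transcripts of release M24 (mm10). The authors deposited expected counts per gene, that is, estimated counts that were not normalised and not pooled. Strand handling and the choice of listed genes are not given in the sources used here. Reads that match several transcripts are shared out by Kallisto.

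Estimated counts were rounded to whole numbers. Symbols and positions came from GENCODE release M21 (GRCm38, counted from 1), with 42156 of 42450 identifiers matched. Groups came from the sample titles. Genes past filterByExpr (minimum count 10, minimum total 15) were tested with edgeR 4.0.16 (TMM, glmQLFit, glmQLFTest, two-sided, genotype as the sole term, all 6 libraries), with Benjamini-Hochberg adjustment over all 18905 genes. The study's methods name edgeR's glmQLFTest after a filter on low expression, and the other settings were chosen here. Every adjusted p comes from this fit unless said otherwise. The SE is the log2 fold change divided by the square root of F. CPM used TMM-scaled library sizes, and profiles for likeness used log2 CPM with a prior count of 2. The script was tested on simulated counts.

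The members and lists were chosen with earlier results of these data known, and 2 genes first placed on the lists were left out afterwards for reasons other than their values and are not reported here, so the counts are those of the shortened lists. The genes named were the 7, Srrm2, the genes of the lists, annotated neighbours within 50 kb and, for each called gene of the 7, the 2 genes with the nearest profile. The alternatives were RLE and upper quartile scaling, TMM without short RNA, rRNA and mitochondrial genes, DESeq2 1.42.0, limma voom (limma 3.58.1), filters of at least 1 count over all libraries or at least 1 CPM in a group, a replicate block, omission of every single library, and stricter calls (adjusted p under 0.01, or a log2 fold change of size 1 or more).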

Additional observations from a re-analysis of the deposited data

How the results depend on the processing

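Dab2 was called in all 13 alternatives of scaling, tool, filter, block or left-out library, with log2 fold changes between 1.02 and 1.52 and adjusted p between 0.00322 and 0.0396. It missed a limit of adjusted p under 0.01, which left 0 of the 7 genes called (edgeR, where 2 of the 5 tested had an unadjusted p under 0.05). Gata6, Sox7, Gata4 and Pdgfra were called in none. The log2 fold change of Gata4 turned to 0.0012 with upper quartile scaling, 0.0092 with limma voom, 0.0023 with a filter of at least 1 count and 0.0068 with the replicate block, and with 1 library left out it ranged from -0.16 to 0.0964. That of Pdgfra ranged from -0.56 to 0.0093. With the replicate number as a block, Dab2 was at 1.31 (edgeR adjusted p 0.0106) and 1 gene was called. Deviations of same-numbered libraries from their group means had correlations of -0.0285, -0.0337 and -0.0300, so no shared pattern by replicate number was seen. Whether same-numbered libraries were handled together is not given. The block left 1 of the 3 tested neighbours (Neil2) called instead of 2, left-out libraries between 0 and 1, and adjusted p under 0.01 or a log2 fold change of size 1 or more left 0. At that size limit the lists held 23 called genes instead of 52, and all genes tested 1153 instead of 4781. At adjusted p under 0.01 they were 2779. The cause of these shifts was not tested beyond the stricter rules themselves. The filter of at least 1 CPM left none of the 7 genes to test, and Sox17 and Foxa2 had no test in any alternative with the usual filter. Depth limits every gene here, and 5 of the 7 had at most 31 counts in any library. The edgeR SEs of Sox7 and Dab2 were 0.29 and 0.30. Their WT counts were 26 to 31 and 21 to 32, and their Srrm2+/- counts 16 to 25 and 59 to 109. Whether depth had a part in their different calls was not tested.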
